A study of Mus musculus with 44 samples.

Results

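The genes described here encode the enzymes and cofactors that write, copy and remove DNA methylation: *Dnmt1*, *Uhrf1*, *Uhrf2*, *Dnmt3a*, *Dnmt3b*, *Dnmt3l*, *Tet1*, *Tet2*, *Tet3* and *Tdg*. CTCF peaks were assigned to them when the summit lay in the gene or within 20 kb of it in mm10. The 10 genes held 54 of the 59698 CTCF peaks of *Setdb1* KO ESCs and 36 of the 44241 CTCF peaks of WT ESCs. The genes were given as a list by name, drawn up with earlier results of these data known.

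DNA methylation in mammals is laid down on cytosines of CpG dinucleotides by the DNMT3 enzymes and copied to the new strand after replication by DNMT1. TET enzymes oxidise 5-methylcytosine, and the oxidised bases are either diluted by replication or cut out by TDG. In mouse ESCs these genes set the balance between methylated and hypomethylated states, and *Dnmt3l* and *Tet1* are known for high expression there. CTCF, the zinc finger protein of insulators and loop anchors, binds a long GC-rich motif, and methylation of CpG within that motif is known to reduce its binding at some sites.

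CTCF was mapped by ChIP-seq after formaldehyde crosslinking in TT2 mouse ESCs, a line from a C57BL/6 by CBA cross. The WT group is clone 33#6, for which the labels give no 4-OHT treatment. In the *Setdb1* KO group, *Setdb1*, which encodes an H3K9 methyltransferase, was deleted conditionally with 800 nM 4-OHT for 4 days, and cells were harvested on day 6. The WT is a single clone, and 1 peak list per condition was analysed. A difference between the lists therefore has no replicate check, the treatment cannot be told apart from the deletion, and no p-value is given. Neither *Setdb1* itself nor the expression of any gene can be checked from CTCF peaks.

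The library depth worked out from the peak lists was 27.6 M tags in *Setdb1* KO and 27.4 M in WT. The pileup of a peak is the number of fragments over its summit. Peaks of *Setdb1* KO are called shared where they met a WT peak over 1 bp or more, and KO-only where they met none. Genome-wide, 41876 sites paired a single peak from either list, and there the pileup of *Setdb1* KO divided by that of WT had a median of 1.36 and quartiles of 1.17 and 1.61. A single site is therefore read against 1.36 as well as against 1. Intervals of ratios are exact 95% intervals from the 2 pileups, intervals of shares are Wilson 95% intervals, and both cover counting error only.

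Within 50 bp of the summit, 29 of the 54 *Setdb1* KO peaks held the CTCF motif, 53.7% (40.6 to 66.3), against 57.7% of the whole list. The sequences below are those of the 6 KO-only peaks with a motif and of 15 of the 23 shared ones: those with a KO to WT ratio of at least 1.6 or a *Setdb1* KO pileup of at least 100, at a member's promoter, or with a CpG at position 2 of the motif. These limits were set after the values were seen. They were read from RefSeq GRCm38.p6 (mm10) on the strand of the motif, 5′ to 3′, and capitals mark the 14-base core of the motif. The first line is the most frequent base at each place over the 2946 KO-only peaks of the whole list that hold the 12 bases CCAGAAGAGGGC at the start of the core. The limits left out a shared site with these 12 bases, in a *Tet1* intron, which is described further below.
Most frequent bases, KO-only peaks of the genome: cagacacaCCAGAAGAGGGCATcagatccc
*Dnmt1* intron, KO-only, chr9:20954554-20954583, minus strand: cagagacaCCAGAAGAGGGCATcaaatccc
Upstream of *Uhrf1*, KO-only, chr17:56301811-56301840, plus strand: cagatacaCCAGAAGAGGGCATtagaccca
*Uhrf1* intron, KO-only, chr17:56309941-56309970, plus strand: caaacactCCAGAAGAGGGCGTcagatccc
Upstream of *Tet2*, KO-only, chr3:133547937-133547966, minus strand: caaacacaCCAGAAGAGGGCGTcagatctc
*Dnmt3a*, KO-only, chr12:3875655-3875684, plus strand: cctgcaggCCAGAAGAGGGCACcagatttt
*Tet1* coding exon, KO-only, chr10:62832960-62832989, minus strand: aggtttggCCAGAAGGGGAAGGcaatccgg
*Tet1* intron, shared, chr10:62862628-62862657, minus strand: cgtggccaCCAGAAGAGGGCAGcagatctc
*Tet1* downstream, shared, chr10:62804258-62804287, minus strand: cgtagaagCCACAAGAGGGCATccaatctg
*Tet2* intron, shared, chr3:133536739-133536768, minus strand: cagacacaCCAGAAGAGGGCACcagattcc
*Uhrf2* intron, shared, chr19:30046047-30046076, minus strand: cactaaggCCAGAAGAGGGCATcaaactcc
*Plin3* promoter near *Uhrf1*, shared, chr17:56291369-56291398, plus strand: gcatgttgCCACCAGGTGGCGCcctgctcg
*Kdm4b* intron near *Uhrf1*, shared, chr17:56333031-56333060, plus strand: tgttgatgCCAGAAGAGGGTGTcagatcga
*Uhrf2* intron, first site, shared, chr19:30044811-30044840, plus strand: cacaaaggCCAGAGGAGGGCATcagaaaca
*Dnmt3a* downstream, shared, chr12:3926293-3926322, plus strand: taaggtggCCACCAGAGGGCAGagttgttc
*Dnmt3l* upstream, shared, chr10:78025628-78025657, minus strand: cctgagttCCACAAGAGGGCATcagtagat
*Aire* promoter in *Dnmt3l*, shared, chr10:78043540-78043569, minus strand: cgcgtgggCCAGCAGGGGGCGCcgaggcgc
*Bola3* intron near *Tet3*, shared, chr6:83356701-83356730, plus strand: aaaactagCCACTAGGGGGCAGcgtgggcc
*Dnmt3b* downstream, shared, chr2:153694656-153694685, minus strand: cttcgcgtCCACCAGGGGGCGCtgggtagt
*Dnmt3b* promoter, shared, chr2:153668903-153668932, plus strand: ttgtcttaCCAGCAGAGGGAGCaataggac
*Icosl* promoter near *Dnmt3l*, shared, chr10:78069689-78069718, plus strand: cggcttggACGGCAGGGGGCGGcgcagggc
*Bola3* promoter near *Tet3*, shared, chr6:83349400-83349429, plus strand: gcctccggACGGCAGGGGGCGGgctcggcc

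Of the 54 *Setdb1* KO peaks at the 10 genes, 35 were shared and 19 were KO-only. The KO-only share was 35.2% (95% interval 23.8 to 48.5), against 28.8% of the whole *Setdb1* KO list, which lies inside that interval. Of the 36 WT peaks, 1 had no overlapping *Setdb1* KO peak (WT-only), against 3.22% of the whole WT list. At least 1 KO-only peak lay at 9 of the 10 genes, all but *Uhrf2*, against 52.3% of 21951 protein-coding genes with the same window. All 10 had a *Setdb1* KO peak of some kind, against 83.1% of protein-coding genes, and *Tet1* alone had a WT-only peak, against 7.41%. *Uhrf1* and *Tet2*, with 4 KO-only peaks each, had the most, and 3.84% of protein-coding genes had 4 or more. The members are 20.2 to 108 kb long and the median protein-coding gene is 17.4 kb long, and these shares over genes were not matched for length. With lists cut to equal length by -log10 q, KO-only peaks at the 10 genes numbered 5 of 37, or 13.5% (5.91 to 28.0), against 11.7% of the whole list.

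**Figure D1:**
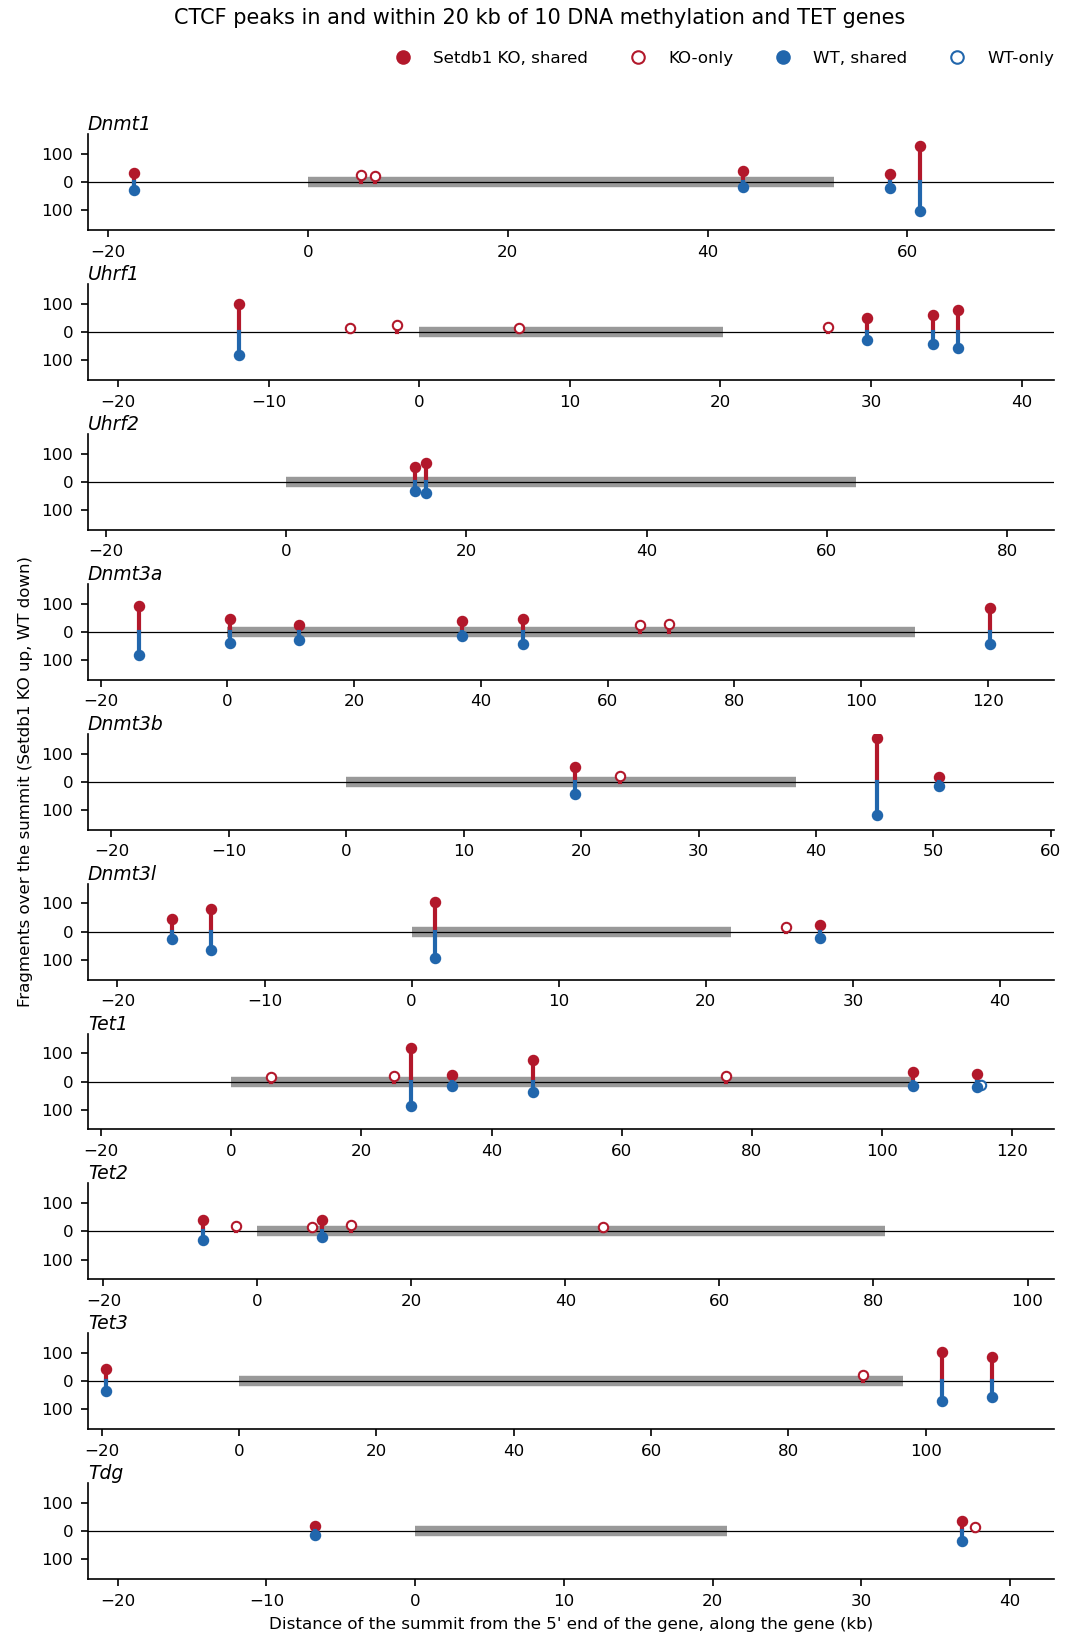
Each panel shows a gene (grey bar) and the CTCF peaks in and within 20 kb of it. The horizontal axis is the distance of the summit from the 5′ end of the gene in kb, and the vertical axis is the pileup in fragments, upwards for *Setdb1* KO (red) and downwards for WT (blue). Filled points are shared and open points are KO-only or WT-only. The KO-only peaks have pileups of 15 to 28, while shared *Setdb1* KO peaks reach 154 near *Dnmt3b*.

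At the 35 shared sites the *Setdb1* KO pileups summed to 2082 fragments and the WT pileups to 1523, a ratio of 1.37 (1.28 to 1.46). The median of the single ratios was 1.34, close to the 1.36 of all paired sites. The pileup was higher in *Setdb1* KO at 33 of the 35 sites, against 90.8% of all paired sites. The ratio was 2 or more at 4 of them, in or near *Dnmt1*, *Dnmt3a* and *Tet1*, against 9.39% of all paired sites. Its interval lay above 1 at 14 sites, against 31.5% of all paired sites, and below 1 at 0 sites, against 0.0501%. The interval lay above 1.36 at 1 site, in *Tet1* (5.49% of all paired sites), and below 1.36 at none (2.28%).

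**Figure D2:**
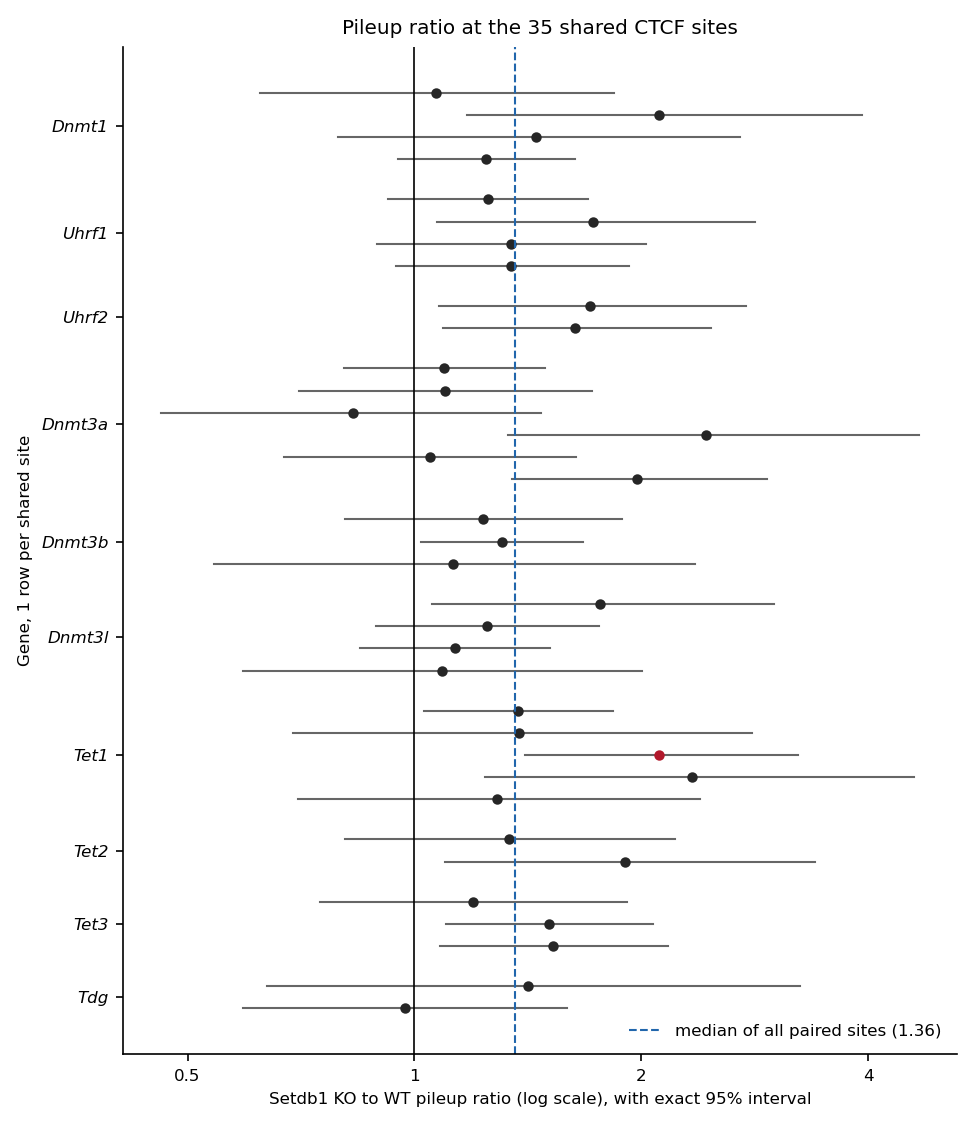
Points are the ratio of the *Setdb1* KO to the WT pileup at each of the 35 shared sites, on a log scale, with sites ordered along each gene. Lines are exact 95% intervals for counting error, and the dashed line is the median of all paired sites, 1.36. The red point is the *Tet1* intron site, the 1 site whose interval lies above 1.36.

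*Dnmt1*, *Uhrf1* and *Uhrf2* encode the maintenance machinery. Together they held 16 *Setdb1* KO peaks, of which 6 were KO-only, and their 10 shared sites had a ratio of summed pileups of 1.40 (1.24 to 1.58).

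*Dnmt1*, the maintenance methyltransferase gene, lies at chr9:20907209-20959888 on the minus strand and held 6 *Setdb1* KO peaks, 2 of them KO-only. Both KO-only peaks lay in the 5′ part of the gene. The one at chr9:20952941-20953279 was at an annotated promoter of *Dnmt1*, 191 bp from the nearest transcription start. It lay 6.72 kb from the 5′ end of the annotated gene, with a pileup of 21 and a fold enrichment of 2.83. It held no CTCF motif, its background of 6.76 fragments was, with that of a *Tet2* peak, the highest among the KO-only peaks of the 10 genes, and it dropped out of the list at a -log10 q of at least 5. The other, at chr9:20954248-20954802, was in an intron, with a pileup of 24 and a fold enrichment of 6.41. Its summit region was fully repeat-masked, and 28 of its 30 printed bases equal the most frequent bases of the first line above.

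The shared site of *Dnmt1* with the highest pileup was at the promoter of *Eif3g*, which encodes a subunit of translation initiation factor eIF3, where 127 fragments in *Setdb1* KO stood against 102 in WT. Its ratio of 1.25 (0.952 to 1.63) was near that of the genome. The site in an intron of *Dnmt1* itself, with its summit at 20916367, had 38 fragments in *Setdb1* KO and 18 in WT. This ratio of 2.11 (1.18 to 3.93) was the highest of the gene, and its interval took in 1.36. At the promoter of *S1pr2*, which encodes a sphingosine-1-phosphate receptor, the pileups were 31 and 29, a ratio of 1.07 (0.623 to 1.84). Summed over the 4 shared sites, 225 fragments stood against 169, a ratio of 1.33 (1.09 to 1.64).

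*Uhrf1*, whose product binds hemimethylated CpG and recruits DNMT1, lies at chr17:56303321-56323486 on the plus strand. It held 8 *Setdb1* KO peaks, 4 shared and 4 KO-only, and its window was the most densely occupied of the 10, with 13.3 *Setdb1* KO peaks per 100 kb. The shared sites all lay outside the gene. A KO-only peak at chr17:56301724-56301975, 1.46 kb upstream of *Uhrf1*, had a pileup of 24, and another at chr17:56309852-56310205, in an intron of *Uhrf1*, had a pileup of 15. Both summit regions were fully repeat-masked, both held the 12-base core, and 26 and 27 of their 30 bases equal the most frequent ones. The 2 others had no motif: a pileup of 16 was found at chr17:56298675-56298919 in an intron of *Arrdc5*, and a pileup of 18 at chr17:56330296-56330578 in an intron of *Kdm4b*, which encodes a histone H3K9 demethylase. The peak in *Arrdc5* dropped out of the list at a -log10 q of at least 5.

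The highest shared site of *Uhrf1* was at the promoter of *Plin3*, a lipid droplet protein gene, where 100 fragments in *Setdb1* KO stood against 80 in WT. Its ratio of 1.25 (0.922 to 1.70) was the lowest of the 4. In an intron of *Kdm4b*, 50 fragments stood against 29, a ratio of 1.72 (1.07 to 2.83), the highest of the 4. Over all 4 sites the ratio of summed pileups was 1.36 (1.13 to 1.63). All 5 motifs of the *Uhrf1* window, KO-only and shared, were on the plus strand, which is the direction of the gene. This did not hold for all members. At *Tet3* the 2 motifs ran against the gene, and at *Dnmt1*, *Uhrf2*, *Dnmt3a*, *Dnmt3b* and *Dnmt3l* the directions were mixed. The share over all genes was not worked out.

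*Uhrf2*, the paralog of *Uhrf1*, lies at chr19:30030513-30093722 and held 2 *Setdb1* KO peaks, both shared and both in introns of the gene. The pileups were 53 in *Setdb1* KO and 31 in WT at the summit 30044842, and 67 and 41 at the summit 30046039. The ratios were 1.71 (1.08 to 2.76) and 1.63 (1.09 to 2.47). The ratio of the sums, 1.67 (1.23 to 2.26), was the highest of the 10 genes, and its interval took in 1.36. The motifs at these neighbouring sites were on opposite strands.

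*Dnmt3a*, *Dnmt3b* and *Dnmt3l* encode the de novo methylation machinery. They held 17 *Setdb1* KO peaks, of which 4 were KO-only, and at their 13 shared sites the ratio of summed pileups was 1.27 (1.14 to 1.41), the lowest of the 3 roles.

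*Dnmt3a*, a de novo methyltransferase gene, lies at chr12:3806007-3914443 on the plus strand and held 8 *Setdb1* KO peaks, 2 of them KO-only. The peak at chr12:3875582-3875830 had the highest pileup of all 19 KO-only peaks, 28 fragments, with a fold enrichment of 7.56, and its summit fell in a UTR of an annotated *Dnmt3a* transcript. The peak at chr12:3870836-3871209, in an intron, had a pileup of 24, with no motif and no repeat-masked base around the summit. Both stayed KO-only under all 6 other ways of matching or trimming the lists.

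At the promoter of *Dnmt3a*, 0.053 kb from an annotated start, the shared peak had 45 fragments in *Setdb1* KO and 41 in WT, for a KO to WT ratio of 1.10 (0.703 to 1.72). The highest shared site lay upstream, between *Dtnb* and *Dnmt3a*, with 92 and 84 fragments and a ratio of 1.10 (0.806 to 1.49). The range of ratios at *Dnmt3a* was the widest of the 10 genes. In 1 intron, with its summit at 3842969, the pileups were 39 and 16, and the ratio of 2.44 (1.33 to 4.67) was the highest of all 35 sites. In another, with its summit at 3817271, they were 24 and 29, and the ratio of 0.828 (0.461 to 1.47) was the lowest. Neither interval left out 1.36, and over the 6 shared sites the ratio of sums was 1.29 (1.09 to 1.52).

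*Dnmt3b*, the other de novo methyltransferase gene of the 10, lies at chr2:153649450-153687730 on the plus strand. It held 4 *Setdb1* KO peaks, 3 shared and 1 KO-only. The shared site downstream of the gene, 1.99 kb from a start of *Dnmt3c*, had the highest pileups of all sites of the 10 genes, 154 in *Setdb1* KO and 118 in WT. Its ratio was 1.31 (1.02 to 1.67), and its motif score was also the highest. At a promoter of *Dnmt3b*, 0.442 kb from an annotated start inside the gene, the pileups were 53 and 43, a ratio of 1.23 (0.809 to 1.89). In an intron of *Dnmt3c*, which encodes a rodent methyltransferase of the male germline, they were 18 and 16, a ratio of 1.12 (0.542 to 2.36). The KO-only peak at chr2:153672660-153672873 was in an intron of *Dnmt3b*, with a pileup of 21 and no motif. Over the 3 shared sites the ratio of sums was 1.27 (1.04 to 1.56).

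*Dnmt3l*, whose product has no catalytic activity and stimulates DNMT3A and DNMT3B, lies at chr10:78041947-78063622 on the plus strand. Of its 5 *Setdb1* KO peaks, 4 were shared. The highest had pileups of 104 and 92 and was at the promoter of *Aire*, the thymic autoantigen regulator gene, 1.62 kb into *Dnmt3l*. Its ratio was 1.13 (0.846 to 1.51). A repeat-masked site upstream of the gene had 44 and 25 fragments and the highest ratio, 1.76 (1.05 to 3.00). The promoter of *Icosl*, which encodes the ligand of the T cell costimulator ICOS, had 25 and 23 fragments and the lowest ratio, 1.09 (0.592 to 2.00). The KO-only peak, at chr10:78067094-78067537 between *Dnmt3l* and *Icosl*, had a pileup of 17 and no motif. Over the 4 shared sites the ratio of sums was 1.24 (1.03 to 1.50).

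*Tet1*, *Tet2*, *Tet3* and *Tdg* encode the enzymes of oxidation and excision. They held 21 *Setdb1* KO peaks, of which 9 were KO-only, and 1 WT-only peak. At their 12 shared sites the ratio of summed pileups was 1.48 (1.31 to 1.68), the highest of the 3 roles. Its interval overlapped those of the other roles and took in the 1.36 of the genome, and the difference between roles was not tested.

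*Tet1*, the main TET gene of mouse ESCs, lies at chr10:62804570-62908996 on the minus strand and held 8 *Setdb1* KO peaks, 5 shared and 3 KO-only. An intron site with its summit at 62862639 had 76 fragments in *Setdb1* KO and 36 in WT. Its ratio of 2.11 (1.40 to 3.23) was the 1 ratio among the 35 sites whose interval lay above 1.36. This site holds the 12-base core, and 74.3% of its summit region was repeat-masked. Another site, 0.314 kb beyond the 3′ end of the gene, had 35 and 15 fragments and the highest ratio of *Tet1*, 2.33 (1.24 to 4.60).

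The strongest site in *Tet1*, with its summit at 62881400 in an intron, had 118 fragments in *Setdb1* KO and 86 in WT, for a KO to WT ratio of 1.37 (1.03 to 1.83). No motif passed the threshold there. The lowest ratio, 1.29 (0.700 to 2.39), was at a site downstream towards *Ccar1* with 27 and 21 fragments. Near it lay the WT-only peak, at chr10:62793774-62793977, with a pileup of 13, a fully repeat-masked summit region and no motif. It stood within 1 kb of a *Setdb1* KO peak. The ratio of summed pileups over *Tet1* was 1.60 (1.32 to 1.94).

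All 3 KO-only peaks of *Tet1* were inside the gene. The peak at chr10:62832776-62833016 was in a coding exon, with a pileup of 20 and a motif with 13 of 30 bases equal to the most frequent ones. Those at chr10:62883804-62884147 and chr10:62902706-62902909 were in introns, with pileups of 19 and 15 and no motif. The one with a pileup of 15 dropped out of the list at a -log10 q of at least 5. All 4 motifs at *Tet1* were on the minus strand, the strand of the gene.

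*Tet2*, which encodes a TET enzyme known for its role in blood stem cells, lies at chr3:133463679-133545139 on the minus strand. It held 6 *Setdb1* KO peaks, and the 4 KO-only peaks outnumbered the 2 shared ones. A KO-only peak at chr3:133547825-133548087, 2.81 kb upstream of the gene, had a pileup of 18. Its motif holds the 12-base core, and 27 of 30 bases equal the most frequent ones. The other 3 were in introns of *Tet2* and had no motif. Their pileups were 17 at chr3:133500134-133500402, 23 at chr3:133532972-133533211 and 17 at chr3:133537944-133538222. The last had the lowest fold enrichment of the 19, 2.32, over a background of 6.76 fragments, and it dropped out at a -log10 q of at least 5.

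The shared intron site of *Tet2* had 40 fragments in *Setdb1* KO and 21 in WT, for a KO to WT ratio of 1.90 (1.10 to 3.40). The shared site 7.04 kb upstream had 40 and 30, a ratio of 1.33 (0.810 to 2.22). The intron site was fully repeat-masked and had 28 of 30 bases equal to the most frequent ones, as many as the closest KO-only peak of the 10 genes. All 3 motifs at *Tet2* were on the strand of the gene. The ratio of sums was 1.57 (1.09 to 2.27).

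*Tet3*, known for oxidation of the paternal genome in the zygote, lies at chr6:83362373-83459084 on the minus strand. Of its 4 *Setdb1* KO peaks, 3 were shared, all outside the gene. In an intron of *Bola3*, a gene of iron-sulfur cluster assembly, the pileups were 104 in *Setdb1* KO and 69 in WT, for a KO to WT ratio of 1.51 (1.10 to 2.07). At the promoter of *Bola3* they were 87 and 57, a ratio of 1.53 (1.08 to 2.17). Upstream of *Tet3*, 19.4 kb from the gene, they were 43 and 36, a ratio of 1.19 (0.749 to 1.91), and the ratio of sums was 1.44 (1.18 to 1.78). The KO-only peak at chr6:83368051-83368343 was in a coding exon of *Tet3*, with a pileup of 21, no motif and 5.94% of its summit region repeat-masked. It stayed KO-only under all 6 other ways of matching or trimming the lists. The 2 motifs at *Tet3* were on the plus strand, against the direction of the gene.

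*Tdg*, the thymine DNA glycosylase gene, lies at chr10:82629828-82650799 on the plus strand and was the 1 gene with no CTCF peak inside it. Its 3 *Setdb1* KO peaks were in the flanks. In an intron of *Glt8d2*, a glycosyltransferase gene, the shared site had 35 fragments in *Setdb1* KO and 36 in WT, for a KO to WT ratio of 0.972 (0.593 to 1.59). At the promoter of 1190007I07Rik the pileups were 17 and 12, a ratio of 1.42 (0.638 to 3.25). The ratio of sums, 1.08 (0.718 to 1.64), was the lowest of the 10 genes. Its interval took in 1.36, as did those of the 9 other genes. The KO-only peak at chr10:82667403-82667610, also in *Glt8d2*, had a pileup of 15 and lay within 1 kb of a WT peak.

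The KO-only peaks of the 10 genes were weak. Their pileups ran from 15 to 28 with a median of 19, near the median of 18 of all KO-only peaks, while the shared peaks ran from 17 to 154 with a median of 45. In the lowest tercile of all *Setdb1* KO peaks by pileup, fewer than 26 fragments, 73.3% were KO-only, and at the 10 genes 18 of 23 were. The middle tercile gave 1 of 17 at the 10 genes and 15.1% of the list. In the highest tercile 0 of 14 were KO-only, with an upper Wilson bound of 21.5%, against 0.511% of the list. The lists hold no WT value at a KO-only peak, so that a WT pileup just below the calling threshold and no WT binding cannot be told apart.

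By place, 13 of the 19 KO-only peaks were in introns, 2 in coding exons, 1 in a UTR, 1 at a promoter and 2 between genes. The intron peaks include those in *Arrdc5*, *Kdm4b*, *Glt8d2* and *Gm42567*, the last being the peak upstream of *Tet2*. Of the 35 shared peaks, 9 were at promoters, 17 in introns and 9 between genes. The windows are built on genes, and shares by place were not worked out for the whole list. Inside the member genes themselves, 13 of 26 *Setdb1* KO peaks were KO-only, or 50% (32.1 to 67.9), an interval that leaves out the 28.8% of the whole list. That list takes in peaks outside genes too, and this difference was not tested.

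A CTCF motif was found at 6 of the 19 KO-only peaks, 31.6% (15.4 to 54.0), and at 23 of the 35 shared peaks, 65.7% (49.2 to 79.2). The whole list gave 37.0% of KO-only and 66.1% of shared peaks. Control windows gave 1.00% by construction, since the threshold is their 99th percentile. The matrix was built from the top 1000 shared peaks. The shares of KO-only and shared peaks are not matched for pileup. In the lowest pileup tercile of the whole list, 31.6% of KO-only and 29.5% of shared peaks held the motif. The middle tercile gave 60.1% and 56.8%, and the highest 89.2% and 83.2%. In the lowest tercile at the 10 genes, 5 of 18 KO-only and 3 of 5 shared peaks held it. More than 50% of the sequence around the summit was repeat-masked at 10 of the 19 KO-only peaks, 52.6% (31.7 to 72.7), and at 7 of the 35 shared peaks, 20.0% (10.0 to 35.9). In the whole list these shares were 41.4% and 24.7%. The intervals of the 10 genes took in the share of the list in each case.

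The 12 bases CCAGAAGAGGGC opened the core at 5 of the 6 KO-only motifs and at 4 of the 23 shared motifs. The whole list held them at 46.3% of KO-only and 20.0% of shared motifs. These are shares of peaks with a called motif. Over all peaks, with or without a motif, the whole list gave 17.1% of KO-only and 13.2% of shared peaks. The member genes gave 26.3% (11.8 to 48.8) and 11.4% (4.54 to 26.0) on that count. Of all control windows, also with or without a motif, 0.457% held these bases. All 5 KO-only sites with these bases were in repeat-masked sequence, as were 3 of the 4 shared ones. In the whole list, 94.1% of KO-only and 85.3% of shared peaks with these bases were repeat-masked. The 5 KO-only sites lie at *Dnmt1*, *Uhrf1* (2 sites), *Tet2* and *Dnmt3a*. The likeness ran beyond the core, with 26 to 28 of 30 bases equal to the most frequent ones in all but the *Dnmt3a* site, which has 21. Of the 30 bases, 12 are equal because the sites were picked for them. At least 24 bases were equal in 4 of the 6 KO-only and 2 of the 23 shared motifs. The whole list gave 35.2% of KO-only and 7.66% of shared motifs. The 12 bases and the likeness were taken up after the sequences had been seen, and are a description of them. Of the 4 shared motifs with the 12 bases, 3 are printed above, with ratios of 1.63 to 2.11. The other lay in a *Tet1* intron, with its summit at 62875118, and did not meet the limits for printing. It was fully repeat-masked, and 27 of its 30 bases equal the most frequent ones. Its pileups were 22 in *Setdb1* KO and 16 in WT. Its ratio of 1.38 (0.690 to 2.80) was close to the median of all paired sites.

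Positions of the core are counted from 1 at its 5′ end. At position 12, 2 of the 6 KO-only motifs, at *Uhrf1* and *Tet2*, and 10 of the 23 shared motifs carried a CpG, or 33.3% and 43.5%, against 28.7% and 37.6% in the whole list. At position 2, 0 of the 6 KO-only motifs carried one, with an upper Wilson bound of 39.0%, and 2 shared motifs did, at the promoters of *Icosl* and *Bola3*. In the whole list, 1.37% of KO-only and 5.01% of shared motifs had a CpG at position 2. DNA methylation at these sites was not analysed here.

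**Figure D3:**
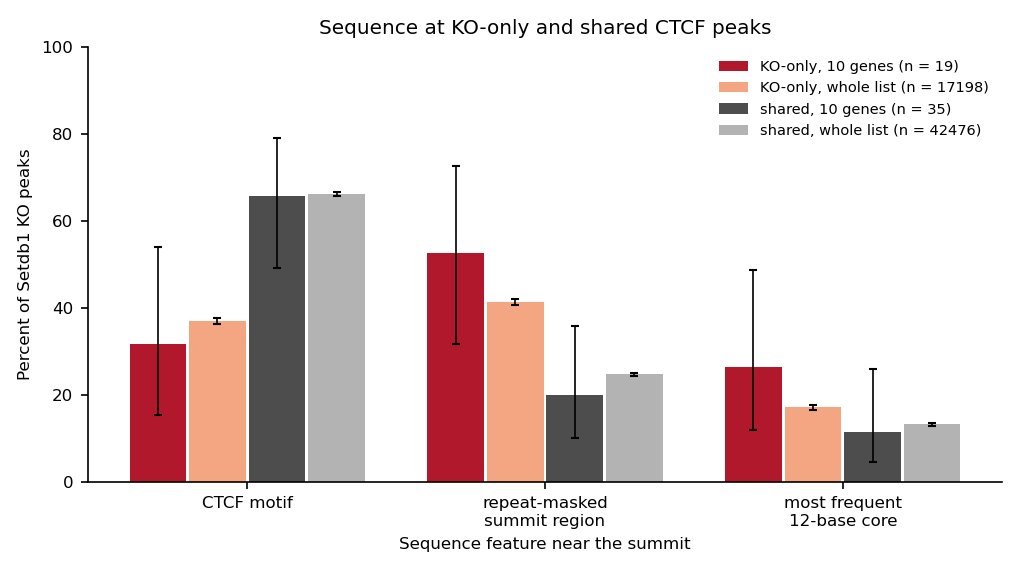
Bars are the percent of *Setdb1* KO peaks with a CTCF motif, with more than 50% repeat-masked sequence around the summit, and with the most frequent 12-base core, and lines are Wilson 95% intervals. KO-only peaks of the 10 genes (red) and of the whole list (light red) stand beside shared peaks of the 10 genes (dark grey) and of the whole list (light grey). The motif was found at 31.6% of KO-only and 65.7% of shared peaks of the 10 genes, and each interval of the 10 genes takes in the share of the whole list. The shares are not matched for pileup.

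A list of 26 other genes of the pathway, among them readers of methylated DNA, cofactors, repair enzymes and genes of the methyl donor cycle, held 84 *Setdb1* KO peaks. Of these, 12 were KO-only, 14.3% (8.37 to 23.3), and this interval lies below the 28.8% of the whole list. Within the genes it was 27.3% (13.2 to 48.2), which takes in the 28.8%. The 12 lay at 7 of the 26 genes. *Usp7*, which encodes a deubiquitinase that binds DNMT1 and UHRF1, had 4 of its 9 *Setdb1* KO peaks KO-only. *Zbtb4*, a reader of methylated CpG, had 2 of 4, and *Cxxc5*, which encodes a CXXC zinc finger protein, had 2 of 9. The remaining genes with a KO-only peak tied with 1 each. At the 66 paired sites of this list the ratio of summed pileups was 1.35 (1.29 to 1.41), beside the 1.37 of the 10 genes. The interval of the KO-only share of the 10 genes, 23.8 to 48.5%, lay just above that of the 26, but the intervals overlapped under 6 of the 9 alternative settings. The lists share 2 peaks, which lie near both *Dnmt3b* and *Dnmt3c*, and without them the share of the 26 was 14.6% (8.57 to 23.9), which also overlaps. Both lists were drawn up with results of these data known, and the difference was not tested.

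The window of 20 kb cut between separate sites. The outermost sites inside it were at *Tet3*, 19.4 kb away with pileups of 43 in *Setdb1* KO and 36 in WT, and at *Dnmt1*, 17.4 kb away with 31 and 29. The nearest ones outside were at *Dnmt3l*, 23.0 kb away with 108 and 82, and at *Dnmt3b*, 23.2 kb away with 76 and 64. All of these were shared.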

How the data were processed

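CTCF ChIP-seq peak lists of WT and *Setdb1* KO mouse ESCs were analysed, 1 library per condition. Per the labels and the submitters' processing notes, the authors mapped the reads with Bowtie 1.2 on mm10, dropped Picard-marked duplicates and ran MACS2 2.1.0 on each library against its input at a q of 0.05 and a genome size of 2.43e+09. The deposited fold enrichment is a ratio of pileup to background, after 1 was added to both. Both p and q were deposited by the authors on a -log10 scale. The deposited score is the whole part of 10 times that -log10 q, and summit offsets were deposited in bp. Second libraries, other lines and other assays were not analysed here.

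Solving the fold enrichment and the Poisson p together gave the pileup and background of each peak (tolerance 0.001 on -log10 p, solved for 100% of peaks), and the depth from the lowest background. Peaks overlapping by at least 1 bp were shared. GENCODE vM21 gave gene spans and places (promoter: up to 1 kb from a transcription start). Sequence and repeat masking (101 bp centred on the summit) were read from the RefSeq GRCm38.p6 genome. The mask gives no repeat class. For the CTCF matrix, the top 1000 shared *Setdb1* KO peaks by -log10 q were used. A motif was called above the 99th percentile of windows shifted by 1 kb. Ratios carry Clopper-Pearson and shares Wilson 95% intervals. Simulated data were used to test the solving, the overlap and the motif search. Statistics were computed with scipy 1.17.1 and numpy 2.4.6 in Python 3.11.15, tables were joined with pandas 2.3.3, and the genome was read with samtools 1.23.1.

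The members, the list of 26 other genes and the rule for named sites (KO-only, WT-only and promoter sites, sites whose interval leaves out 1.36, and per gene the highest pileup and the highest and lowest ratio) were chosen with earlier results of these data known. The alternatives were other overlaps, thresholds, list lengths, scalings, gene windows and spans, other motif settings, and each gene left out in turn. Of the 26 other genes, those tied at 1 KO-only peak are given by count and not named here.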

Additional observations from a re-analysis of the deposited data

How the results depend on the processing

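No replicate error could be had with 1 library per condition, and depth limits single ratios: 14 of 35 intervals left out 1. No paired analysis was possible because 1 library per condition was analysed. KO-only peaks at the 10 genes numbered 19, between 17 and 25 under all other alternatives except lists of equal length, where they were 5, and a gene window of 0 kb, where they were 13. Their share of 35.2% was 13.5% with lists of equal length, which trims 14 of the 19 by construction, and 50% within the genes. Leaving out each gene in turn gave 15 to 19 peaks and shares of 31.2% to 37.0%. The WT-only count of 1 became 2 with a reciprocal overlap of 50%, 0 when *Setdb1* KO peaks up to 1 kb away also counted as shared, 0 at a -log10 q of at least 5, 4 with lists of equal length, 0 within the genes and 2 with a window of 50 kb. At the 26 other genes the KO-only count of 12 became 4 with lists of equal length (5.63%), 6 within the genes (27.3%) and 36 of 168 with a window of 50 kb (21.4%). It stayed 12 without the 2 peaks that also lie at *Dnmt3b*, an alternative added after the data were seen. Dividing the *Setdb1* KO pileups by the genome median ratio brought the ratio of sums from 1.37 to 1.01 and turned the median ratio from 1.34 to 0.986, by construction. The other alternatives gave ratios of sums of 1.33 to 1.41 and medians of 1.32 to 1.38. Leaving out each gene gave 1.34 to 1.39, with medians of 1.32 to 1.36. The motif share of 53.7% was 68.5% at the 95th percentile and 38.9% with a window of 100 bp, against 57.7%, 74.5% and 43.0% of the whole list. Of the 19 KO-only peaks, 5 stayed listed and KO-only in all 6 alternatives of matching or trimming, those at *Dnmt1* (intron), *Uhrf1* (upstream), *Dnmt3a* (both) and *Tet3*. At a -log10 q of at least 5, 15 of the 19 stayed listed and 4 did not. The count of 18 at that limit also takes in shared sites whose WT peak fell below it.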
